A study of Homo sapiens with 9 samples.

Results

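Replication-dependent histone genes encode the core histones H2A, H2B, H3 and H4 and the linker histone H1 that package newly made DNA. They were taken as every row of the gene table whose older symbol begins with HIST1H, HIST2H, HIST3H or HIST4H. Of 85 such rows, 10 whose symbol ends as a pseudogene's were left out, which left 75 genes of 58381 in the table. There were 6 H1, 17 H2A, 23 H2B, 14 H3 and 15 H4 genes. The HIST1 cluster on chromosome 6 held 55 of them, the HIST2 cluster on chromosome 1 held 15, the HIST3 cluster on chromosome 1 held 4, and HIST4 on chromosome 12 held 1. A further 5 of the 75 (HIST2H2BA, HIST2H2BB, HIST2H2BC, HIST2H2BD and HIST3H2BA) are annotated as pseudogenes although their symbols do not say so.

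The cells were TC-32, a human Ewing sarcoma cell line with the EWSR1::FLI1 fusion, and the question was how the transcription factor ETS1 alters gene expression while the fusion is present. All 3 groups had received the lentiviral vector pLOC: the RFP group with red fluorescent protein, and the ETS1-Low and ETS1-High groups with a synthetic human ETS1 cDNA. Transduced cells were selected with puromycin and sorted singly, and the ETS1 cells were clones with a lower ETS1 level or with a level like that of cells depleted of the fusion. Each group had 3 RNA-seq libraries. The number of clones per group is not labelled, nor whether the RFP cells were a clone, so clone and ETS1 level cannot be told apart, and p-values measure the spread between these libraries only. The endogenous ETS1 gene and the vector copy were not separated.

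Replication-dependent histone mRNAs are made as cells enter S phase and are destroyed when replication ends. They are the animal mRNAs that end in a conserved stem-loop, bound by the stem-loop binding protein SLBP, in place of a poly(A) tail. Replacement histones such as H2AFZ and H3F3B come from separate genes, have ordinary polyadenylated mRNAs and are made throughout the cell cycle. The libraries were made with a kit that selects poly(A) RNA, so most message of these genes is outside what such a library captures, and the counts below describe the part that was captured.

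The stem-loop is shown because it is what sets these mRNAs apart from the rest of the library. A search of the first 150 bases after each stop codon looked on the gene's strand for 16 bases made of the arm GGNNNT, the loop TNTN and the arm ANNNCC, with all 6 bases of the arms paired. It was found in 70 of 70 members with an annotated stop codon and in 6 of 19537 other protein-coding genes (0.0307%). The 6 included the histone genes H3-7 and H2AX, the latter listed in the count table as H2AFX. The loop began 23 to 68 bases after the stop, with a median of 36, and 10 versions of it occurred. The examples below are read from GRCh38 on the gene's strand, with the stem-loop in capitals and 5 flanking bases on each side.
HIST1H1B (chr6:27866797-27866812, minus): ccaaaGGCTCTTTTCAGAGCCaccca
HIST1H2AC (chr6:26124669-26124684, plus): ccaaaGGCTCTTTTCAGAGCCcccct
HIST2H2AC (chr1:149887391-149887406, plus): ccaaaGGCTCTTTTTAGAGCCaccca
HIST1H2BK (chr6:27146366-27146381, minus): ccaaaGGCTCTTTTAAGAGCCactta
HIST1H3G (chr6:26270923-26270938, minus): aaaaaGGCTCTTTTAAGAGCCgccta
HIST1H4J (chr6:27824459-27824474, plus): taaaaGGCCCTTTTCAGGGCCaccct
HIST2H4B (chr1:149860769-149860784, minus): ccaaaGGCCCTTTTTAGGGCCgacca
The loop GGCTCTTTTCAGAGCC, carried by HIST1H1B and HIST1H2AC, was the most frequent and was found in 40 members of the H1, H2A, H2B and H3 classes. The H4 genes had stems of their own: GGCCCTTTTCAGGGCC in 10 and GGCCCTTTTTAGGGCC in 4, and no member outside the H4 class had either. The version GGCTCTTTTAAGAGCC, shown for HIST1H2BK and HIST1H3G, occurred in 10 members.

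Promoters are shown for 3 members whose levels differed between the groups. HIST1H2AC and HIST1H2BK had the same order of groups, and HIST1H1B had another. A RefSeq promoter (GRCh38.p14) was found for 65 of the 75 members. The 250 bases before the start are printed on the gene's strand, with capitals for the octamer ATTTGCAT, the CCAAT box and TATAAA on either strand.
HIST1H2AC (chr6:26123922-26124171, plus): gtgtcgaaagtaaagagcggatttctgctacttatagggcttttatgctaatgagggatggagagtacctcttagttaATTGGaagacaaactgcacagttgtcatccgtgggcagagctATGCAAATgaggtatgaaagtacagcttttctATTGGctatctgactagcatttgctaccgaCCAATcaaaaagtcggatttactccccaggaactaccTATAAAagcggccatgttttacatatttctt
HIST1H2BK (chr6:27146859-27147108, minus): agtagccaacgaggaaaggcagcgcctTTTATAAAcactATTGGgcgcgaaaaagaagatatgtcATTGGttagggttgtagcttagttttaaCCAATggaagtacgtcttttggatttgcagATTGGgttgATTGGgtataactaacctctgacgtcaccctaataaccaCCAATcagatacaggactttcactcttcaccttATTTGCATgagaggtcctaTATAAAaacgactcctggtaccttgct
HIST1H1B (chr6:27867589-27867838, minus): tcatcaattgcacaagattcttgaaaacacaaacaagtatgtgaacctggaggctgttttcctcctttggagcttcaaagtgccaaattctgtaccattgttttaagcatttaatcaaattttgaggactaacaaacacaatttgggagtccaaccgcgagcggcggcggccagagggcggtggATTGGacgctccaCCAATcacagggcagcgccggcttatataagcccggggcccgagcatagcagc
The octamer, which the factor encoded by POU2F1 binds, stood in 14 of 18 H2B promoters and 11 of 16 H2A promoters, in 1 of 12 H3 promoters and in no H1 or H4 promoter, against 1.71% of 27240 other promoters. These counts used windows of 250 bases before to 50 after the start. CCAAT was in 55 of 65 member promoters (84.6%) against 35.6% of others, and the H4 class had it in 3 of 13. TATAAA was in 66.2% of member promoters and 11.8% of others. Many H2A and H2B genes lie head to head and share 1 window, so these promoters are not independent: the starts of HIST1H2BC and HIST1H2AC are 218 bases apart, and those of HIST1H2BK and HIST1H2AH 250. The ETS-type sequence CCGGAAGT was in 0 of 65 member promoters and 4.45% of others, and the shorter GGAAGT, which it contains, was in 13.8% and 23.2%. A match or its absence describes these letters in these windows only.

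Library totals ran from 39484704 to 46654734 expected counts. ETS1 followed the labels, at 87 to 105 counts in the RFP libraries, 400 to 488 in ETS1-Low and 765 to 879 in ETS1-High. All 9 Ewing sarcoma marker genes on a fixed list passed the filter on low counts. Of 8 markers of other cell types 1 passed, the endothelial and blood cell gene PECAM1 (1.70 CPM in RFP, 3.69 in ETS1-Low and 5.17 in ETS1-High). The other 7 had at most 12 counts in any library, and CD3E had 0 in each. Changes were common throughout the genome: in ETS1-High against RFP 37.0% of the 17235 genes tested were called higher and 37.2% lower.

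All 75 histone genes together took a very small part of each library. Their summed count was 1959, 1827 and 1881 in the RFP libraries, 1094, 1366 and 1330 in ETS1-Low, and 1174, 1312 and 1244 in ETS1-High. As CPM (counts scaled to library size, with library sizes adjusted by the TMM method), the sum was 39.4 ± 1.15 in RFP, 30.6 ± 1.79 in ETS1-Low and 28.9 ± 1.00 in ETS1-High (SD, n = 3). Every RFP library lay above every ETS1 library, while the ETS1-Low and ETS1-High libraries overlapped. The summed CPM was thus 0.776 of the RFP level in ETS1-Low and 0.735 in ETS1-High. The 12 replacement histone genes summed to 2115 ± 34.3, 2022 ± 28.1 and 2185 ± 38.6 CPM, many times the captured level of the 75 genes. In bulk poly(A)-selected RNA, fewer cells in S phase, less RNA per cell and a smaller captured share of it cannot be told apart.

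**Figure D1:**
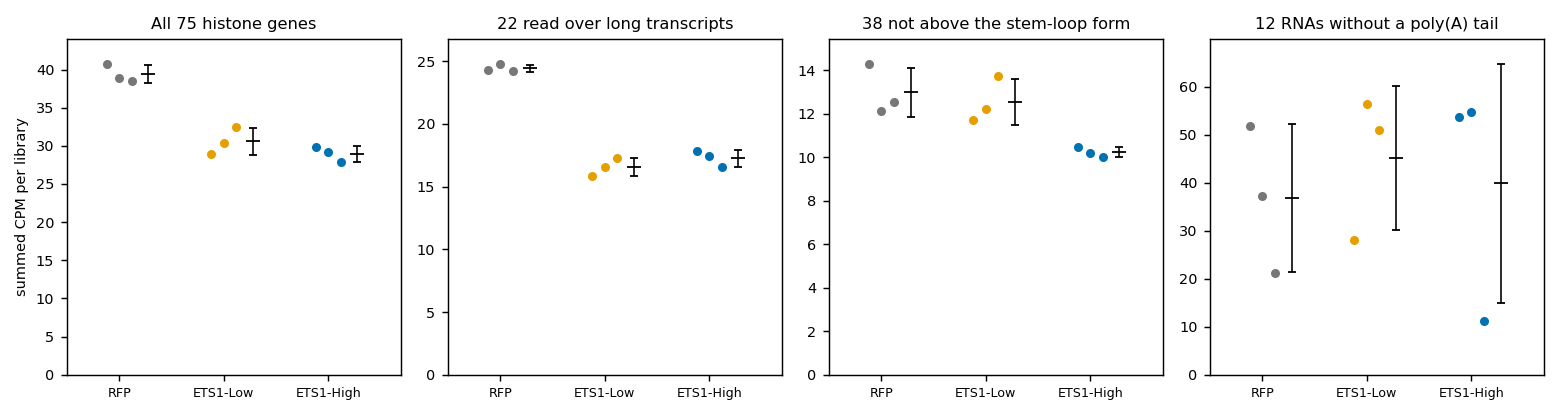
Summed CPM (y axis, from 0) in each of the 9 libraries for 4 gene sets, with the mean and SD of each group beside the points. All 75 histone genes average 39.4 CPM in RFP and 30.6 and 28.9 in the ETS1 groups. The 22 whose implied length exceeds the stem-loop form (panel titled as read over long transcripts) are lower in the ETS1 groups too. The 38 whose implied length does not exceed it overlap between RFP and ETS1-Low. The 12 RNAs without a poly(A) tail spread widely inside each group.

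A few genes held most of the counts. The 10 members of highest mean count took 55.9% of all histone counts, and 8 members had a mean of at least 50 counts per library. At the other end, 10 members had 0 counts in all 9 libraries, among them the testis genes HIST1H1T, HIST1H2BA and HIST3H3, and a count of 0 allows up to 3 counts per library, for counting error only. The filter on low counts kept 38 of the 75: 3 H1, 8 H2A, 16 H2B, 5 H3 and 6 H4 genes. Those 38 had a median of 25.8 counts per library, against 707 over all genes tested, so only large changes could be detected in most of them. The 37 others, at most 7.11 counts on average, summed to 1.77 ± 0.17 CPM in RFP, 2.90 ± 0.38 in ETS1-Low and 1.98 ± 0.34 in ETS1-High.

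Among the tested members ETS1-High differed from RFP in 1 direction. In the edgeR quasi-likelihood test, with p-values adjusted over all genes by the Benjamini-Hochberg method and a call at an adjusted p under 0.05, 12 of 38 were called lower (31.6%, against 37.2% of all genes tested) and 0 higher (against 37.0%). None was higher at an unadjusted p under 0.05 or by DESeq2 either, while limma on FPKM called 2 higher with the lower pseudocount or without a filter. The 12 lower genes were HIST1H2AC, HIST1H2BC, HIST1H2BD, HIST1H2BE, HIST1H2BJ, HIST1H2BK, HIST1H2BN, HIST1H3G, HIST2H2BF, HIST2H3A, HIST2H3C and HIST2H4B, so 7 were H2B, 3 H3, 1 H2A, 1 H4 and none H1. HIST2H3A and HIST2H3C, which cannot be told apart, are counted separately in the 12. Their share lies near that of the genome, and near the 34.9% of genes with means of 5 to 150 counts, of which 22.3% were higher. The median log2 fold change of the 38 was -0.38, against -0.01 over all genes and -0.20 over genes with means of 5 to 150 counts; without ETS1-High replicate 3 it was -0.19.

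ETS1-Low against RFP gave a mixed picture. HIST1H1B, HIST1H1E and HIST1H3B were called higher (3 of 38, 7.89%, against 37.9% of all genes), and 7 were called lower (18.4%, against 36.2%; 20.8% and 34.7% among genes with means of 5 to 150 counts). The lower genes were HIST1H2AC, HIST1H2BD, HIST1H2BK, HIST1H2BN, HIST1H3G, HIST2H2BE and HIST2H4B. The median was -0.07 (0.01 over all genes and -0.18 over genes with means of 5 to 150 counts), and it was 0.07 without RFP replicate 2. Both comparisons use the same RFP libraries, so their values are given side by side only. In ETS1-High against ETS1-Low 3 were higher (HIST1H2AC, HIST1H2BK and HIST3H2A; 7.89%, against 29.9%) and 10 lower (26.3%, against 29.3%), where genes with means of 5 to 150 counts gave 19.4% and 15.9%. The lower genes were HIST1H1B, HIST1H1E, HIST1H2BC, HIST1H2BJ, HIST1H3B, HIST1H4C, HIST1H4E, HIST2H2BF, and the copies HIST2H3A and HIST2H3C, which cannot be told apart and are counted separately. The median was -0.27, against -0.0011 over genes with means of 5 to 150 counts.

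**Figure D2:**
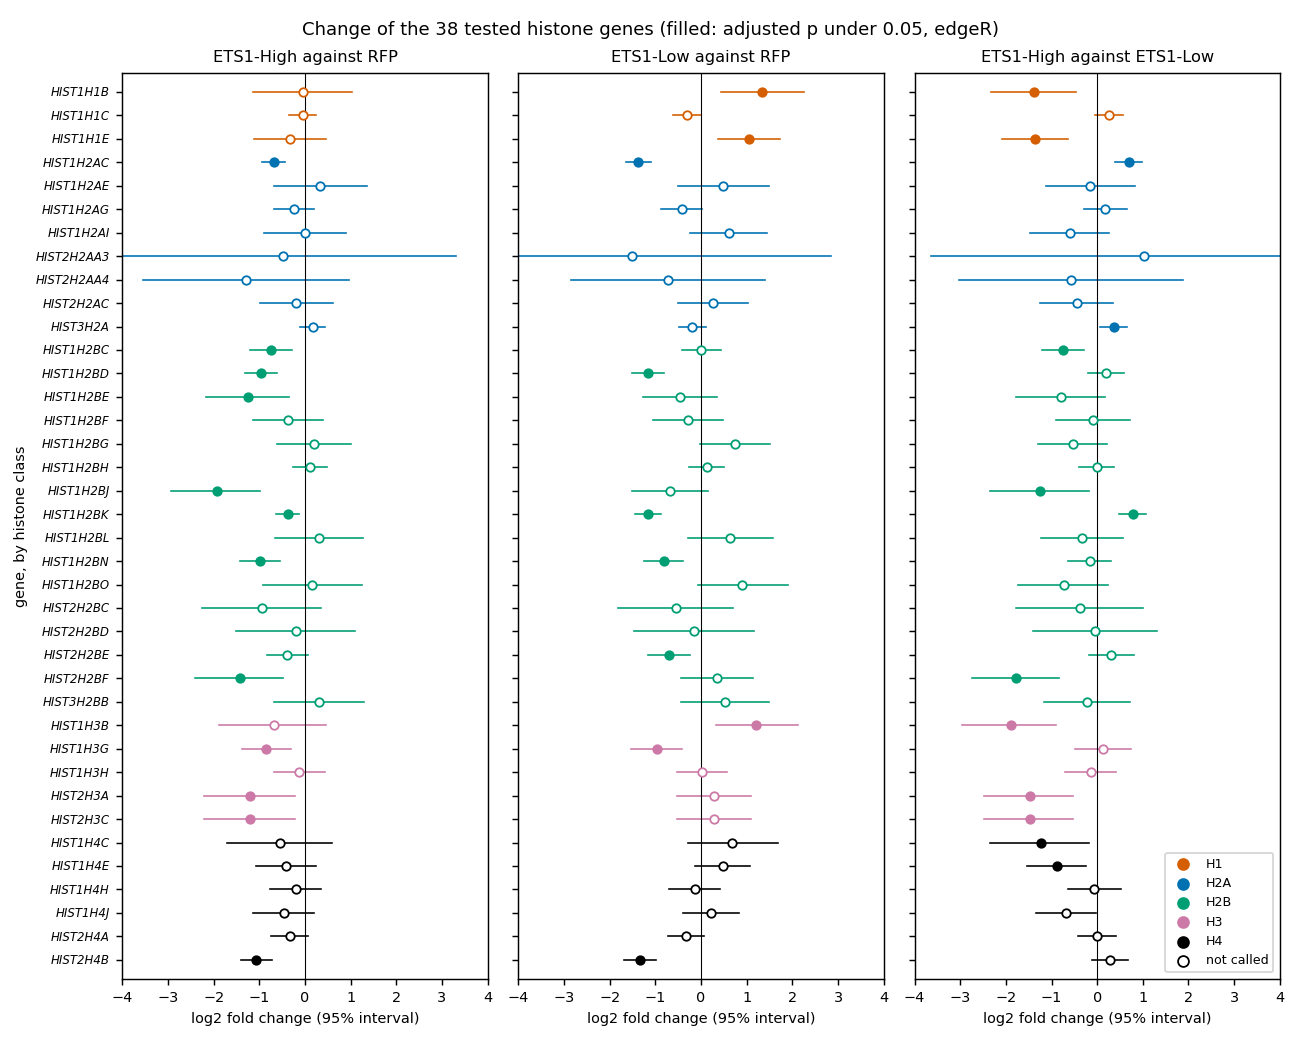
Log2 fold change (x axis) with its 95% interval for the 38 tested histone genes, coloured by class, in the 3 comparisons; filled points have an adjusted p under 0.05 (edgeR), and intervals beyond the axis are clipped. In ETS1-High against RFP the 12 filled points all lie left of 0; in ETS1-Low against RFP HIST1H1B, HIST1H1E and HIST1H3B lie to the right and 7 others to the left.

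Linker histones. HIST1H1C (ENSG00000187837.3, chr6:26055740-26056470, minus strand, 1 exon) was the H1 gene of highest level, at 5.18 ± 0.78 FPKM in RFP, 3.78 ± 0.28 in ETS1-Low and 4.66 ± 0.16 in ETS1-High, where FPKM are fragments scaled to transcript length and library size. In CPM its libraries read 2.31, 1.88 and 2.60 in RFP, 1.77, 1.73 and 1.98 in ETS1-Low and 2.21, 2.27 and 2.08 in ETS1-High. Each ETS1 group overlapped RFP, ETS1-High lay above ETS1-Low in every library, and no comparison passed the test. The log2 fold change was -0.05 (95% interval -0.35 to 0.25) in ETS1-High and -0.31 (SE 0.15; adjusted p 0.0653) in ETS1-Low, both relative to RFP.

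HIST1H1E (ENSG00000168298.6, chr6:26156329-26157115, plus strand) encodes another somatic H1. It had 37, 21 and 12 counts in RFP, 29, 44 and 52 in ETS1-Low and 23, 18 and 9 in ETS1-High. In CPM these were 0.77, 0.45 and 0.25, then 0.77, 0.98 and 1.27, then 0.58, 0.40 and 0.20. ETS1-Low overlapped RFP in 1 library and lay wholly above ETS1-High. Its log2 fold change in ETS1-Low was 1.04 against RFP (SE 0.33; adjusted p 0.00625, edgeR). Limma on FPKM did not call this rise (adjusted p 0.0519, 0.0847 and 0.113, by filter and pseudocount). ETS1-High was 1.36 below ETS1-Low (log2 fold change -1.36, SE 0.35; adjusted p 0.00142, edgeR). That call was lost by limma on log2(FPKM + 1) without a filter (adjusted p 0.0619).

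HIST1H1B (ENSG00000184357.4, chr6:27866792-27867588, minus strand), an H1 gene tied to dividing cells, had 14, 3 and 5 counts in RFP, 16, 21 and 11 in ETS1-Low and 7, 7 and 5 in ETS1-High. ETS1-Low was higher than RFP (log2 fold change 1.32, SE 0.45; adjusted p 0.00681 by edgeR), with 1 RFP library above its lowest. It was higher than ETS1-High in all 3 libraries (log2 fold change -1.38 from ETS1-Low to ETS1-High, SE 0.46; adjusted p 0.00849). At so few counts single libraries matter: without RFP replicate 2 the rise in ETS1-Low was 0.97 (adjusted p 0.0659), and without ETS1-Low replicate 2 the fall in ETS1-High was -1.20 (adjusted p 0.0551).

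H2A genes. HIST1H2AC (ENSG00000180573.9, chr6:26124145-26139116, plus strand, 3 annotated transcripts of 519 to 1668 bases) had the most counts of all 75. Its CPM was 4.45, 4.44 and 4.49 in RFP, 2.17, 1.60 and 1.42 in ETS1-Low and 2.39, 2.98 and 2.91 in ETS1-High. The 3 groups did not overlap, and the level was highest in RFP and lowest in ETS1-Low. The log2 fold change was -1.37 (SE 0.14; adjusted p 6.94e-13, edgeR) in ETS1-Low and -0.69 (SE 0.13; adjusted p 3.32e-06) in ETS1-High, and ETS1-High lay above ETS1-Low by 0.69 (SE 0.15; adjusted p 6.17e-05). These are 2.59-fold and 1.61-fold below RFP.

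HIST3H2A (ENSG00000181218.5, chr1:228434777-228457873, minus strand), in the HIST3 cluster, had CPM of 2.45, 2.28 and 2.21 in RFP, 2.04, 2.18 and 1.86 in ETS1-Low and 2.36, 2.60 and 2.82 in ETS1-High. ETS1-High was above ETS1-Low in every library (log2 fold change 0.36, SE 0.14; adjusted p 0.0295 by edgeR), and neither group passed the test against RFP. The call was lost without ETS1-Low replicate 1, ETS1-Low replicate 3, ETS1-High replicate 2 or ETS1-High replicate 3 (in that order, adjusted p 0.0536, 0.114, 0.0562 and 0.129). It was lost by DESeq2 too (adjusted p 0.0690). HIST2H2AC (ENSG00000184260.5, chr1:149886918-149887411), with 7 to 16 counts per library, passed in no comparison.

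HIST2H2AA3 and HIST2H2AA4 are near-identical copies on chromosome 1, and reads shared by both cannot be assigned to a copy with certainty. HIST2H2AA3 had 0, 57 and 17 counts in RFP and HIST2H2AA4 had 104, 24 and 70, and neither copy alone passed the test. Summed, the pair had 2.16, 1.72 and 1.79 CPM in RFP, 1.14, 0.65 and 1.30 in ETS1-Low and 0.70, 0.90 and 1.17 in ETS1-High. Every RFP library was above every ETS1 library. The summed pair was lower than RFP, with log2 fold changes of -1.03 (SE 0.21; adjusted p 2.78e-05 by edgeR) in ETS1-High and -0.89 (SE 0.21; adjusted p 0.00018) in ETS1-Low. Summing copies was chosen after the values were seen.

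**Figure D3:**
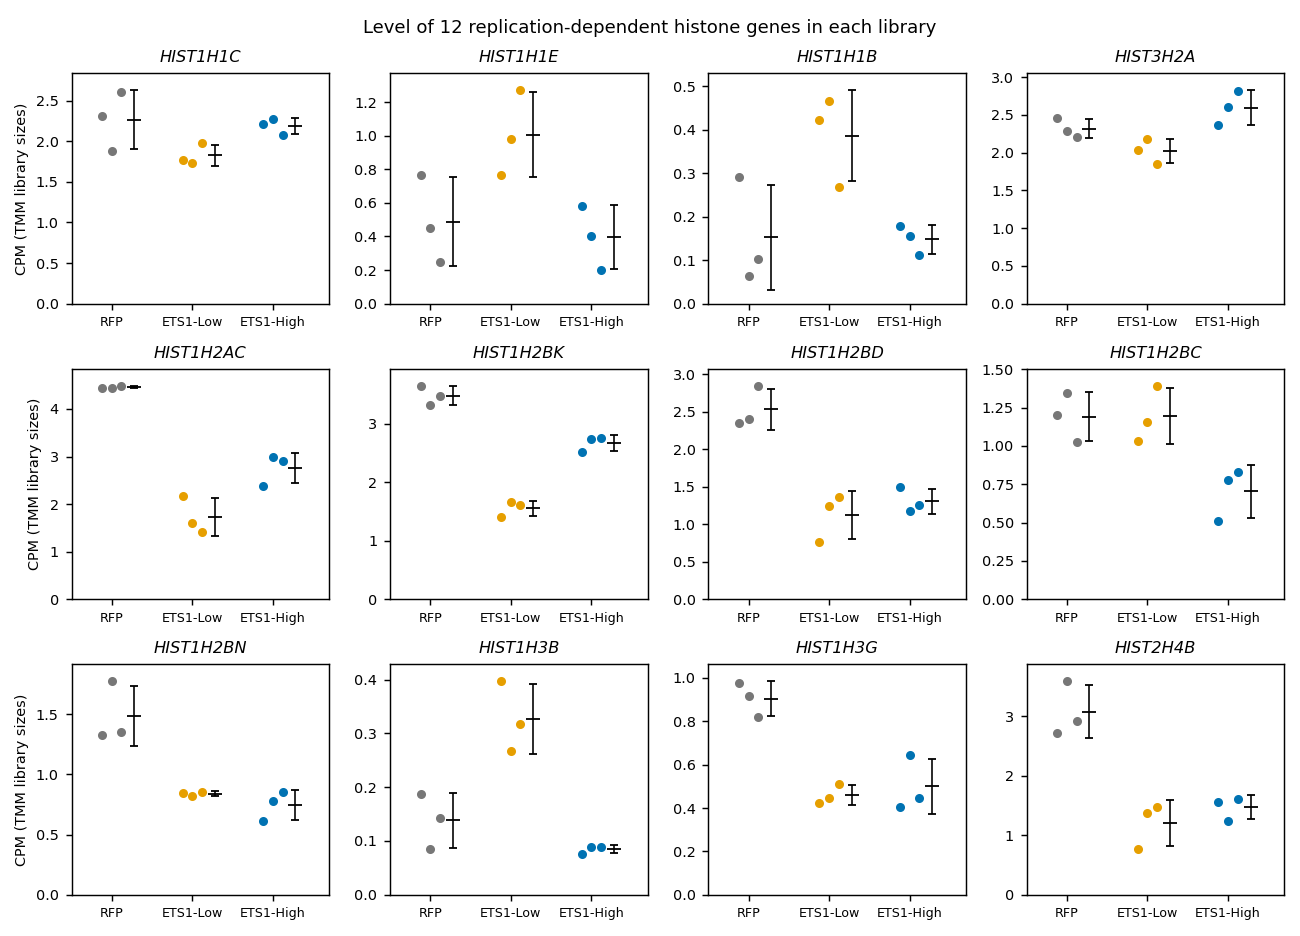
CPM (y axis, from 0) of 12 histone genes in each library, with group mean and SD; HIST1H2BN was added after its values were seen. HIST1H2AC and HIST1H2BK step down from RFP to ETS1-High to ETS1-Low without overlap, HIST1H2BC is lower in ETS1-High alone, and HIST1H1E and HIST1H3B have their highest libraries in ETS1-Low.

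H2B genes. HIST1H2BK (ENSG00000197903.7, chr6:27146361-27146855, minus strand, 1 exon) was the member of highest FPKM, at 18.2 ± 0.91 in RFP, 7.29 ± 0.59 in ETS1-Low and 13.0 ± 0.70 in ETS1-High. Its CPM was 3.65, 3.33 and 3.46 in RFP, 1.41, 1.66 and 1.60 in ETS1-Low and 2.51, 2.75 and 2.75 in ETS1-High. As for HIST1H2AC, the groups did not overlap and ETS1-High lay between the others. It was 2.23-fold lower than RFP in ETS1-Low (log2 fold change -1.16, SE 0.14; adjusted p 2.17e-10, edgeR) and 1.30-fold lower in ETS1-High (-0.38, SE 0.13; adjusted p 0.00685). ETS1-High exceeded ETS1-Low by 0.78 (SE 0.15; adjusted p 7.74e-06).

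HIST1H2BD (ENSG00000158373.8, chr6:26158122-26171349, plus strand) had CPM of 2.35, 2.41 and 2.85 in RFP, 0.77, 1.25 and 1.37 in ETS1-Low and 1.5, 1.18 and 1.25 in ETS1-High. Both ETS1 groups lay below RFP and overlapped each other. The log2 fold change was -1.16 (SE 0.18; adjusted p 1.02e-07, edgeR) in ETS1-Low and -0.96 (SE 0.17; adjusted p 2.79e-06) in ETS1-High. Their difference was 0.20 (95% interval -0.19 to 0.60).

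HIST1H2BC (ENSG00000180596.7, chr6:26086317-26123926, minus strand) is the head-to-head partner of HIST1H2AC and had another pattern. Its CPM was 1.21, 1.34 and 1.02 in RFP, 1.03, 1.16 and 1.39 in ETS1-Low and 0.51, 0.78 and 0.83 in ETS1-High. ETS1-High lay below all other libraries, with log2 fold changes of -0.74 from RFP (SE 0.23; adjusted p 0.00319 by edgeR) and -0.75 from ETS1-Low (SE 0.23; adjusted p 0.0047). ETS1-Low and RFP differed by 0.01 (95% interval -0.42 to 0.43). The annotated exons of this gene overlap HFE on the other strand, and whether the authors' counting used strand is not given in the sources used here.

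Of the other 13 H2B genes tested, 4 passed as lower than RFP in ETS1-High, 2 passed as lower in ETS1-Low, and 0 passed as higher in either (edgeR, and 0 higher at an unadjusted p under 0.05). Over all genes 37.2% were lower and 37.0% higher in ETS1-High, and 36.2% lower and 37.9% higher in ETS1-Low. Among genes with means of 5 to 150 counts, 34.9% were lower and 22.3% higher in ETS1-High, and 34.7% lower and 20.8% higher in ETS1-Low. HIST1H2BN was lower than RFP in both ETS1 groups (log2 fold changes -0.82 in ETS1-Low and -0.98 in ETS1-High). Lower in ETS1-High were HIST1H2BJ (-1.92), HIST1H2BE (-1.25) and HIST2H2BF (-1.43), each with means under 25 counts. HIST2H2BF overlaps FCGR1A on the other strand. HIST2H2BE, called lower in ETS1-Low (-0.70), was -0.39 in ETS1-High (95% interval -0.84 to 0.06). HIST1H2BH, with 52 to 72 counts per library, passed in no comparison and had log2 fold changes of 0.12 and 0.11 against RFP. HIST2H2BD, annotated as a pseudogene, ranged from 19 to 76 counts within RFP and passed in none.

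H3 genes. HIST1H3G (ENSG00000273983.1, chr6:26270918-26271413, minus strand) had CPM of 0.98, 0.92 and 0.82 in RFP, 0.42, 0.45 and 0.51 in ETS1-Low and 0.41, 0.65 and 0.45 in ETS1-High. Both ETS1 groups lay wholly below RFP: the log2 fold change was -0.97 (SE 0.27; adjusted p 0.00143, edgeR) in ETS1-Low and -0.84 (SE 0.27; adjusted p 0.00421) in ETS1-High. HIST1H3H (ENSG00000278828.1, chr6:27810051-27811300, plus strand), at similar counts, ran from 17 to 48 and passed in no comparison.

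HIST1H3B (ENSG00000274267.1, chr6:26031589-26032099, minus strand) had 9, 4 and 7 counts in RFP, 15, 12 and 13 in ETS1-Low and 3, 4 and 4 in ETS1-High. ETS1-Low was above every other library. The log2 fold change was 1.21 (SE 0.45; adjusted p 0.0131, edgeR) against RFP, and ETS1-High against ETS1-Low gave -1.89 (SE 0.51; adjusted p 0.000978). The rise in ETS1-Low did not pass without RFP replicate 2 (adjusted p 0.0800), without ETS1-Low replicate 1 (0.0626) or by DESeq2 (0.0680). HIST2H3A and HIST2H3C, which encode the same protein and cannot be told apart, are taken as a pair. It had 0.54, 0.64 and 0.45 CPM in RFP, 0.59, 0.61 and 0.80 in ETS1-Low and 0.47, 0.20 and 0.09 in ETS1-High. ETS1-High lay below ETS1-Low, and 1 of its libraries overlapped RFP. The pair's log2 fold change in ETS1-High was -1.16 against RFP (SE 0.38; adjusted p 0.0051, edgeR) and -1.46 relative to ETS1-Low (SE 0.37; adjusted p 0.000641). HIST2H3A alone lost its call against RFP without ETS1-High replicate 3 (log2 fold change -0.79; adjusted p 0.168).

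H4 genes. HIST2H4A (ENSG00000270882.2, chr1:149832657-149839767, plus strand) and HIST2H4B (ENSG00000270276.2, chr1:149854045-149861159, minus strand) are copies in the HIST2 cluster. Summed, they had 208, 235 and 220 counts in RFP, 81, 110 and 111 in ETS1-Low and 121, 117 and 108 in ETS1-High. In CPM that was 4.32, 5.01 and 4.51, then 2.14, 2.45 and 2.71, then 3.07, 2.60 and 2.42. The pair was lower than RFP in every ETS1 library, with log2 fold changes of -0.92 (SE 0.12; adjusted p 3.49e-09 by edgeR) in ETS1-Low and -0.78 (SE 0.12; adjusted p 1.1e-07) in ETS1-High. As counted per copy, HIST2H4B was called lower in both groups (-1.34 and -1.06) and HIST2H4A in neither (-0.33 and -0.34). HIST1H4J (ENSG00000197238.4, chr6:27824092-27824480) and HIST1H4H (ENSG00000158406.4, chr6:26277609-26285638) passed in no comparison, with 12 to 36 and 17 to 37 counts per library. HIST1H4C and HIST1H4E were lower in ETS1-High than in ETS1-Low (-1.24 and -0.89; adjusted p 0.0403 and 0.0143, edgeR). HIST1H4C had only 12, 9 and 11 counts in ETS1-Low and 4, 9 and 1 in ETS1-High, and its CPM overlapped between these groups.

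Counts divided by FPKM give the effective length that the authors' software used for a gene. It rests on the annotated transcripts and on the share of reads assigned to each. With 1 annotated transcript it is set by the annotation and does not show which transcript the reads came from. That length exceeded the whole stem-loop-terminated form for 22 members, did not exceed it for 38 and was not estimated for 15 with very low FPKM or no annotated stop. HIST1H2AC had an implied length of 1464 bases against a stem-loop form of 518. For HIST1H3G it was 2230 against 496, and for HIST2H4B 1461 against 375. HIST1H2BK, by contrast, had 202 against 495, the value typical of single-exon members of its size, since an effective length is shorter than the transcript. At the limit, HIST1H2BD stood just above (487 against 486) and HIST1H2BC just below (432 against 460). Because an effective length falls short of the transcript, a member below the limit may still rest partly on longer transcripts. For example, HIST1H2BC, HIST1H2BJ (356 against 480), HIST2H2AA3 (369 against 533), HIST1H2AE (330 against 517), HIST1H2AI (324 against 495) and HIST1H2BL (308.5 against 451) had implied lengths well above 202. HIST1H4C (257 against 405) stood above HIST1H4A (137 against 402), and HIST1H1E (576 against 787) above HIST1H1B (503 against 797). The estimate for HIST1H3G exceeds its 1 transcript in GENCODE v44, so the authors' annotation, whose release is not given in the sources used here, held a longer one.

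**Figure D4:**
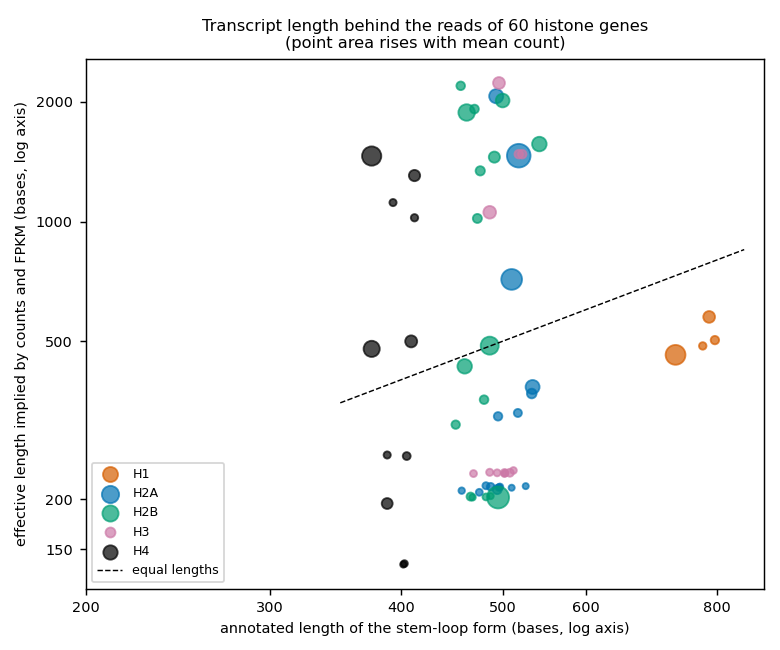
Effective transcript length implied by counts and FPKM (y axis, bases, log scale) against the annotated length of the stem-loop form (x axis, bases, log scale) for 60 histone genes; point area rises with mean count and the dashed line marks equal lengths. The 22 genes above the line, among them HIST1H2AC at 1464 and HIST1H3G at 2230, are of the H2A, H2B, H3 and H4 classes, and the H1 genes all lie below it.

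The 22 members whose implied length exceeded the stem-loop form held 59.1% of all histone counts. They summed to 24.4 ± 0.28 CPM in RFP, 16.6 ± 0.72 in ETS1-Low and 17.3 ± 0.68 in ETS1-High, and every RFP library lay above the ETS1 libraries. Of 20 tested, 6 were called lower and 0 higher in ETS1-Low, and 9 lower and 0 higher in ETS1-High, both against RFP (edgeR; 0 higher at an unadjusted p under 0.05). These shares of 30.0% and 45.0% lower stand beside 36.2% and 37.2% over all genes. The 38 members whose implied length did not exceed the stem-loop form summed to 13.0 ± 1.13, 12.5 ± 1.06 and 10.2 ± 0.23 CPM. Of 16 tested, 3 were higher and 1 lower in ETS1-Low, and 0 higher and 3 lower in ETS1-High (18.8% higher and 6.25% lower, then 18.8% lower, against 37.9%, 36.2% and 37.2% over all genes). HIST1H2BC and HIST1H2BJ, whose implied lengths leave room for longer transcripts, were 2 of those 3. This division was made after the values were seen and is a description.

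Among these 38, HIST1H2BK and HIST1H1C are on a list of 6 members described in the literature as making polyadenylated mRNA, with HIST1H2AC, HIST1H2BD, HIST2H2BE and HIST4H4. Those 6 summed to 13.9 ± 0.81 CPM in RFP, 7.03 ± 0.24 in ETS1-Low and 9.99 ± 0.41 in ETS1-High, with no overlap between any of the groups. Of 5 tested, 4 were called lower in ETS1-Low and 3 in ETS1-High against RFP, where 36.2% and 37.2% of all genes were. With the listed genes taken out, the other 36 of the 38 summed to 8.32, 6.94 and 6.45 CPM in RFP, 8.51, 8.81 and 10.2 in ETS1-Low and 5.76, 5.18 and 5.19 in ETS1-High. Their order was therefore ETS1-Low highest and ETS1-High lowest, with no overlap, unlike the order of the listed genes.

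RNAs that lack a poly(A) tail altogether were counted as a rough guide to how much such RNA entered a library. Their levels in the cells may differ too, so level in the cells and entry into the library cannot be told apart. A list of 12 (RN7SK, RN7SL1, RN7SL2, RMRP, RPPH1, TERC, SNORD3A, SCARNA10, SCARNA2, RNU4-2, RNU2-2P and RNU1-1) summed to 51.9, 37.3 and 21.1 CPM in RFP, 28.1, 56.5 and 51.1 in ETS1-Low and 53.7, 54.7 and 11.2 in ETS1-High. The 3 groups overlapped, and RN7SL1 and RN7SL2 made up most of the spread. Of 8 tested, 5 were called lower in ETS1-High than in ETS1-Low, with a median log2 fold change of -1.46, and 0 higher (edgeR; 0 higher at an unadjusted p under 0.05). RNU1-1 was among those higher in ETS1-Low than in RFP (log2 fold change 1.46; adjusted p 0.000166, edgeR), and RN7SK was lower in ETS1-High than in RFP (-1.33; adjusted p 0.0194, and 0.0576 without RFP replicate 1). Over all genes 29.3% were lower in ETS1-High than in ETS1-Low. The 10 histone genes called lower in ETS1-High than in ETS1-Low had the direction of those 5 RNAs, and 3 histone genes were called higher. HIST1H1B, HIST1H1E and HIST1H3B were among the 10. The part of such RNA in those results was not tested.

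Genes that act with the histone genes were examined from fixed lists. SLBP, which binds the stem-loop, rose from 69.5 ± 0.98 CPM in RFP to 103 ± 2.22 in ETS1-Low and 99.2 ± 3.00 in ETS1-High (log2 fold changes 0.57 and 0.51, SE 0.03; adjusted p 1.82e-21 and 9.07e-20, edgeR). NPAT, the coactivator of histone gene transcription, rose from 36.0 ± 1.41 to 42.7 ± 0.79 and 45.1 ± 1.48 CPM (0.25 and 0.33; not called by limma on FPKM). LSM11, a subunit of the U7 particle that cuts histone pre-mRNA, fell from 26.3 ± 1.27 to 17.9 ± 0.25 and 14.7 ± 0.53 CPM (-0.55 and -0.84). POU2F1, the octamer-binding factor, fell from 100.2 ± 3.17 to 63.9 ± 1.27 and 61.2 ± 3.35 CPM (-0.65 and -0.71). SRRT, which acts with the cap-binding complex in 3′ end formation, rose (0.50 and 0.46). Of the 19 processing and transcription factors, 9 were higher and 8 lower in ETS1-Low, and 8 higher and 4 lower in ETS1-High (47.4%, 42.1%, 42.1% and 21.1%, against 37.9%, 36.2%, 37.0% and 37.2% of all genes).

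Genes of DNA replication and S phase were listed because these histone mRNAs are made in that phase. Of 28, 20 were higher and 5 lower in ETS1-Low against RFP, 13 higher and 11 lower in ETS1-High against RFP, and 3 higher and 19 lower in ETS1-High against ETS1-Low, with medians of 0.23, 0.05 and -0.13. Over all genes 37.9% and 36.2%, 37.0% and 37.2%, and 29.9% and 29.3% were higher and lower in those comparisons. RRM2, a subunit of ribonucleotide reductase, rose from 210 ± 3.85 CPM in RFP to 491 ± 14.0 in ETS1-Low and 536 ± 4.93 in ETS1-High. TYMS, which makes thymidylate, rose from 82.5 ± 2.92 to 199 ± 3.01 and 186 ± 4.99 CPM, and the replicative helicase gene MCM5 from 134 ± 1.97 to 224 ± 4.59 and 203 ± 2.18. The part of S phase in the histone values was not tested.

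Replacement histones and histone chaperones were counted in the same way. Of 11 replacement genes tested, 4 were higher and 4 lower in ETS1-Low and 7 higher and 3 lower in ETS1-High, against RFP, where 37.9% and 36.2%, then 37.0% and 37.2%, of all genes were. H1F0, the linker histone of slowly dividing cells, rose from 51.2 ± 3.00 CPM in RFP to 79.0 ± 1.17 in ETS1-Low and 150 ± 5.81 in ETS1-High (log2 fold changes 0.63 and 1.55, SE 0.04). H2AFY2, which encodes a macroH2A, rose from 50.2 ± 1.27 to 225 ± 5.74 and 182 ± 4.66 CPM. H2AFZ, the most studied H2A variant gene, fell from 493 ± 19.3 to 370 ± 13.2 and 338 ± 13.5 CPM. H3F3B stayed between 258 and 266 CPM in the group means and passed in no comparison (log2 fold changes -0.04 and -0.05). Of 18 chaperone genes, 11 were higher and 7 lower in ETS1-Low, and 7 higher and 6 lower in ETS1-High; CHAF1B, of the replication-coupled assembly factor CAF-1, rose (0.73 and 0.65).

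The clusters were compared with the genes around them. The HIST1 members summed to 25.8 ± 0.33 CPM in RFP, 20.5 ± 1.56 in ETS1-Low and 19.3 ± 0.71 in ETS1-High, the HIST2 members to 11.0 ± 0.69, 7.66 ± 0.85 and 6.56 ± 0.35, and the HIST3 members to 2.52 ± 0.25, 2.32 ± 0.21 and 2.85 ± 0.06. Other genes within 1 Mb of the HIST2 cluster were called lower in 20 of 35 cases and higher in 7 in ETS1-High, and lower in 20 and higher in 6 in ETS1-Low, against RFP. Around HIST1, 19 of 40 were lower and 13 higher in ETS1-High, and 19 lower and 11 higher in ETS1-Low. The median log2 fold change of these neighbours was -0.18 and -0.16 at HIST2 and -0.22 and -0.36 at HIST1, in ETS1-High and ETS1-Low in that order. Over all genes tested 37.2% and 36.2% were lower, against 47.5% around HIST1 and 57.1% around HIST2 in both comparisons. The shares called higher were 37.0% and 37.9% over all genes, 32.5% and 27.5% around HIST1, and 20.0% and 17.1% around HIST2. Inside the HIST1 cluster itself, 9 of 21 other genes were higher and 9 lower in ETS1-High, and 9 higher and 8 lower in ETS1-Low. Around HIST3, 8 of 21 were lower (38.1%, near the share over all genes) and 3 higher (14.3%) in ETS1-High. In ETS1-Low 7 were lower (33.3%) and 6 higher (28.6%). The HIST3 histone sum was 1.13 of the RFP level in ETS1-High and 0.921 in ETS1-Low. The part of the region in the histone values was not tested.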

How the data were processed

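Poly(A)-selected stranded mRNA libraries were made from TC-32 cells, per the labels' protocols. The authors deposited expected counts and FPKM per gene (RSEM, per the file names). The submitters' processing notes list GRCh38, STAR 2.7.3, cutadapt 4.4, featureCounts, Subread 2.0.3 and limma 3.38.3 without roles. The annotation release is not given in the sources used here. Columns were matched to libraries by name, with L and H read as Low and High. Between 9.00% and 10.3% of the expected counts per library were not whole, and they were rounded. The main test was the edgeR 4.0.16 quasi-likelihood test (R 4.3.3; TMM, filterByExpr by group, all 9 libraries in 1 fit, robust), on 17235 genes with Benjamini-Hochberg adjustment, tested on simulated data. CPM use TMM library sizes. Effective length is counts divided by FPKM and library total. Positions come from GENCODE v44 (GRCh38), by gene ID for 69 members and by older symbol for 6. Replicates differed beyond sampling noise (chi-square per gene 2.66 to 5.19 where noise gives near 1), so none was merged. Intervals and floors cover counting error only where they rest on counts. Named genes were the 4 members of highest FPKM per class among those tested, the 3 called members of largest change in each comparison and direction (means of 50 counts or more), and from each other list up to 4 genes of smallest p. The members and lists were chosen with earlier results of these data known.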

Additional observations from a re-analysis of the deposited data

Results flagged for a closer look

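The following 13 histone genes differed between the ETS1 clones themselves (ETS1-High against ETS1-Low, adjusted p under 0.05, edgeR). The fold change compares these groups directly, while the RFP libraries shared in the fit that estimated the spread. The log2 fold change was -1.89 for HIST1H3B, -1.78 for HIST2H2BF, -1.48 for HIST2H3A and HIST2H3C, -1.38 for HIST1H1B, -1.36 for HIST1H1E, -1.25 for HIST1H2BJ, -1.24 for HIST1H4C, -0.89 for HIST1H4E and -0.75 for HIST1H2BC. It was 0.78 for HIST1H2BK, 0.69 for HIST1H2AC and 0.36 for HIST3H2A. They are 3 higher and 10 lower of 38 tested (7.89% and 26.3%), where 29.9% and 29.3% of all genes were called in this comparison. Among genes with means of 5 to 150 counts, a range that held all 38, 19.4% were higher and 15.9% lower. HIST2H3A and HIST2H3C, which cannot be told apart, are counted separately. The 3 that were higher each had a mean of more than 50 counts per library, and the 10 that were lower each had fewer. HIST1H4C and HIST1H2BJ passed narrowly (adjusted p 0.0403 and 0.0394, edgeR), at means of 7.67 and 11.0 counts.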

How the results depend on the processing

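Scaling and the choice of samples moved the counts little: with DESeq2 size factors, upper-quartile factors, the DESeq2 Wald test, fits of only the 2 groups compared or copies summed (added after seeing the data), every count of called histone genes stayed within 1.5 times the one reported. The replicate block gave 13 lower in ETS1-High against RFP in place of 12 and changed no other count; same-numbered libraries did not deviate together (r from -0.03 to 0.03). The filter moved more. With no filter 65 members were tested, 9 were higher in ETS1-Low against RFP, and the medians were -0.20, 0.26 and -0.57 (ETS1-High against RFP, ETS1-Low against RFP, ETS1-High against ETS1-Low). Of those 9, HIST2H3D, HIST1H2AH, HIST1H3I, HIST1H3F, HIST1H3C and HIST1H4B had too few counts for the main filter. Shares over all genes are not given for this setting or those below, so the counts describe only how the members' calls moved. With at least 10 counts in every library 19 were tested: 7 lower in ETS1-High against RFP, 0 higher in ETS1-Low (median -0.36), and 3 lower in ETS1-High against ETS1-Low, whose median turned to 0.0014. The cause was not tested beyond the number of genes tested. On log2(FPKM + 1) for the 15 members averaging 1 FPKM or more, limma called 5 lower in ETS1-High against RFP, 0 higher in ETS1-Low (median -0.28) and 2 lower in ETS1-High against ETS1-Low (median -0.0293). On log2(FPKM + 0.1) it called 2 higher in ETS1-High against RFP, 8 higher in ETS1-Low against RFP (median 0.11) and 5 lower in ETS1-High against ETS1-Low (median -0.50). Without a filter, log2(FPKM + 1) gave 2 higher in ETS1-High (median -0.11) and 8 higher and 11 lower in ETS1-Low. Leaving out 1 library at a time, ETS1-High against RFP had 9 to 13 lower and a median of -0.51 to -0.19; ETS1-Low against RFP had 2 to 5 higher, 7 to 10 lower and a median of -0.25 to 0.0703; ETS1-High against ETS1-Low had 3 to 4 higher, 7 to 9 lower and a median of -0.38 to -0.20. Named genes kept their side of the threshold in 1394 of their values under the other settings, lost a call in 44 and gained one in 27; leaving out libraries, 799 kept it, 23 lost and 6 gained a call, and no called gene changed direction. Means near 26 counts limit what the tests can detect.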
